A study of Oryctolagus cuniculus with 6 samples.

Results

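The family of miR-148 and miR-152 was measured as 3 mature microRNAs (miRNAs), miR-148a-3p, miR-148b-3p and miR-152-3p, in extracellular vesicles from rabbit seminal plasma. The members were chosen by name, and all 3 were present among the 577 mature miRNAs listed. Vesicles came from 2 groups of California x New Zealand white bucks labelled Sub-fertile and Fertile, with 3 libraries per group. Bucks were 10 to 12 months old, and the groups were formed from 14 males by semen quality, low for Sub-fertile and high for Fertile. No allele, agent or diet was given for either group, and each library was a biological replicate made from 2.5 mL of seminal plasma. The labels do not say whether a replicate held the plasma of a single male, and no record of fertility was used. Because the RNA came from whole vesicle preparations, fewer vesicles of a given origin and less miRNA per vesicle cannot be told apart.

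MiRNAs are short RNAs that guide Argonaute proteins to messenger RNAs and lower their stability or translation. Pairing is set mainly by the seed, the bases near the 5′ end of the miRNA. The members of the family share their seed, come from separate genes and are best known, from work in human and mouse cells, as repressors of the DNA methyltransferase DNMT1, the enzyme that copies DNA methylation after replication. In seminal plasma such miRNAs are carried by vesicles that the testis, epididymis and accessory glands release.

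The 3 hairpins are not neighbours in the genome. In the gene table of the RefSeq assembly mOryCun1.1, used for names and neighbourhood alone since it is not the build of the study, MIR148B lay within COPZ1 and MIR152 within COPZ2, which encode zeta subunits of the coatomer of Golgi vesicles. MIR148A overlapped no other gene, and the next protein-coding gene after it was NFE2L3. The next protein-coding gene before MIR148B was NFE2 and the next after MIR152 was NFE2L1, so each of the 3 hairpins had a gene of the NF-E2 family of transcription factors beside it. No other miRNA gene lay within 10 kb of any of them (0 for each).

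Each library held between 129387 and 772619 whole reads recovered from the deposited values, with the fewest in Sub-fertile replicate 1 (129387) and Sub-fertile replicate 2 (242078). Levels are given on the deposited scale, reads divided by library depth and by a further scaling factor per library, called scaled CPM here. A single read was worth 6.24 units in Sub-fertile replicate 1 and 1.33 units in Fertile replicate 1. Sub-fertile replicate 1 stood apart in 2 of the 3 markers of germ and ciliated cells, with miR-34c-5p at 11502 and miR-449a-5p at 3909, while the third, miR-508-3p, was at its lowest of 6 libraries there, 6950. The 3 summed to 22361 in that library, against 11596 and 14884 in the other Sub-fertile libraries and 9312 to 11254 in Fertile libraries. Epithelial markers were high throughout, with a sum over 4 miRNAs of 86779 to 132763 in Sub-fertile and 98504 to 105692 in Fertile libraries. The 3 red cell markers listed summed to 6.24 to 20.4 in Sub-fertile and 12.0 to 37.1 in Fertile libraries, with miR-144-3p at 0 reads in all 6, and the liver miRNA miR-122-5p did not exceed 5.84 in any library. The sum of the 3 striated muscle markers was 181.1, 232.8 and 268.0 in Sub-fertile replicates 1 to 3, against 60.0, 29.2 and 11.6 in Fertile replicates 1 to 3. In Sub-fertile libraries that sum was carried by miR-206-3p, which rose (log2 change 3.89, SE 0.49, limma adjusted p = 0.0062). In Fertile replicate 1 it was mostly miR-1-3p, at 50.7, against 9.33 for miR-206-3p. The mean of miR-1-3p was 12.7 in Sub-fertile and 18.3 in Fertile libraries, and miR-133a-3p had 0 reads in all 6. The part of this in the members' levels was not tested. The 3 leukocyte markers summed to 238.4 to 518.3 in Sub-fertile and 160.0 to 526.0 in Fertile libraries.

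The family was carried almost wholly by miR-148a-3p, which ranked 16 of 234 tested miRNAs by mean level. Its level was 17328, 16922 and 21799 in Sub-fertile replicates 1, 2 and 3, against 18549, 16496 and 17874 in Fertile replicates 1, 2 and 3. The groups overlapped, and the highest library on the deposited scale was Sub-fertile replicate 3. With reads divided by library depth alone (plain CPM), Sub-fertile replicate 1 was the highest, at 21447, against 19669 in Sub-fertile replicate 3. This member rested on 2775 to 12528 reads in Sub-fertile and 7714 to 13916 in Fertile libraries. It held between rank 15 and rank 17 in each of the 6 libraries. The mean was 18683 ± 2706 in Sub-fertile and 17640 ± 1047 in Fertile vesicles (SD, n = 3 each).

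The second member, miR-148b-3p, ranked 71 of 234. Its level was 786.8, 857.7 and 1056 in Sub-fertile replicates 1 to 3, against 846.4, 689.0 and 711.3 in Fertile replicates 1 to 3. On the deposited scale the groups overlapped through Sub-fertile replicate 1 and Fertile replicate 1, while the other 2 Sub-fertile libraries were above all 3 Fertile ones. With plain CPM the groups did not overlap. Levels were then 973.8, 867.5 and 953.0 in Sub-fertile replicates 1 to 3, against 821.9, 660.4 and 676.7 in Fertile replicates 1 to 3. The mean on the deposited scale was 900.2 ± 139.6 in Sub-fertile and 748.9 ± 85.2 in Fertile vesicles (SD, n = 3 each). It rested on 126 to 607 reads in Sub-fertile and 307 to 635 reads in Fertile libraries.

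The third member, miR-152-3p, was scarce and ranked 174 of 234. Its level was 37.5, 36.8 and 73.1 in Sub-fertile replicates 1 to 3, on 6, 9 and 42 reads, against 49.3, 38.9 and 32.4 in Fertile replicates 1 to 3, on 37, 20 and 14 reads. Sub-fertile replicate 3 was again the highest library. Its 95% exact Poisson interval of 52.7 to 98.8 overlapped that of every other library. These ran from 13.7 to 81.5 and from 16.8 to 69.8 in Sub-fertile replicates 1 and 2. In Fertile replicates 1 to 3 they ran from 34.7 to 68.0, from 23.8 to 60.1 and from 17.7 to 54.4. These intervals cover counting error only. The mean was 49.1 ± 20.8 in Sub-fertile and 40.2 ± 8.52 in Fertile vesicles (SD, n = 3 each).

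**Figure D1:**
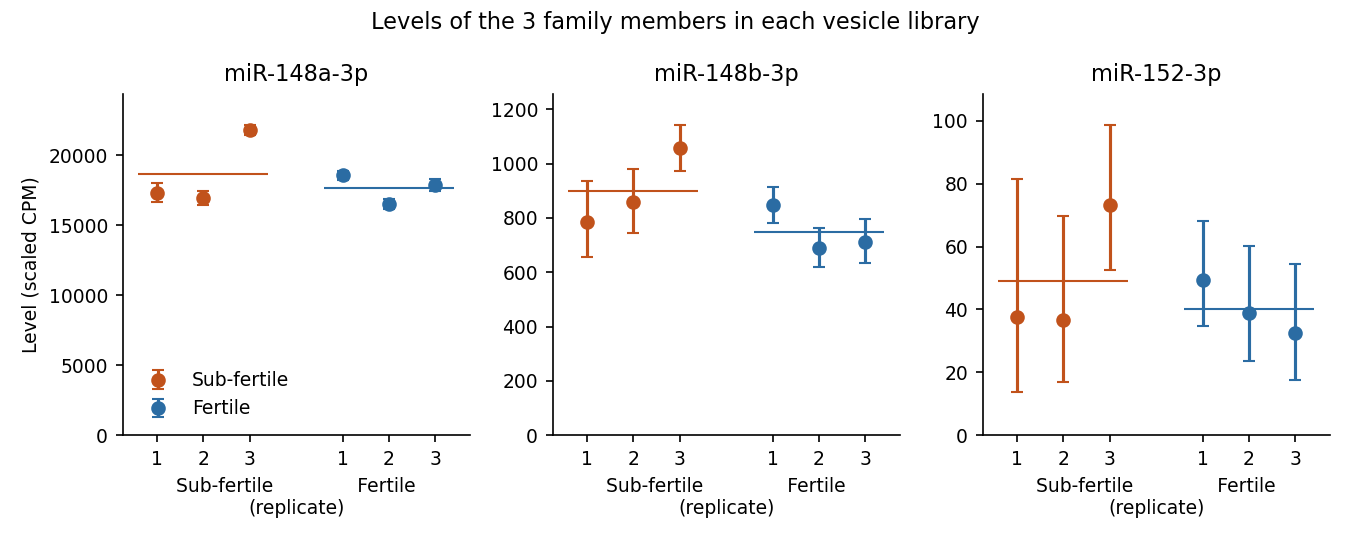
Levels of miR-148a-3p, miR-148b-3p and miR-152-3p in scaled CPM (vertical axis, a separate scale for each panel) in each library, Sub-fertile left and Fertile right; bars are 95% exact Poisson intervals of the reads and horizontal lines are group means. Sub-fertile replicate 3 is the highest library in all 3 panels, at 21799, 1056 and 73.1, and the groups overlap in each.

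The order of the members by level, miR-148a-3p above miR-148b-3p above miR-152-3p, held in all 6 libraries. Mature miRNAs are of nearly one length, so no length correction was made, and differences in library preparation efficiency between sequences were not measured. The ratio of miR-148a-3p to miR-148b-3p averaged 22.2 as a geometric mean over 6 libraries, that of miR-148b-3p to miR-152-3p 19.0 and that of miR-148a-3p to miR-152-3p 421.1. For each of these 3 pairs the two-sided exact sign-flip permutation p was 0.031, also after Benjamini-Hochberg adjustment over the 3 pairs (n = 6 libraries), which is the smallest p that 6 libraries can give. The sources used here do not state how reads were assigned among these closely similar sequences, so reads of the abundant member could be counted for a scarce one, and this was not tested.

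Around each member, the neighbours in the order of mean level were only partly separable. The next miRNAs above miR-148a-3p, miR-21-5p with a mean of 28272 and miR-191-5p with 29064, were higher in all 6 libraries. The next below it, let-7c-5p with a mean of 17453, was higher than miR-148a-3p in 3 of 6 libraries, while miR-509b-3p was higher in 0 of 6. None of the 4 neighbours of miR-148b-3p (miR-6529-5p, miR-196a-2-5p, miR-509c-3p and miR-506-5p) lay on one side of it in all 6 libraries, nor did the 4 neighbours of miR-152-3p (miR-379-5p, miR-135a-2-3p, miR-191-3p and miR-324-3p).

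The whole family summed to 18153, 17817 and 22928 in Sub-fertile replicates 1 to 3, against 19445, 17224 and 18617 in Fertile replicates 1 to 3. It made up 2.25%, 1.80% and 2.07% of the library total in Sub-fertile and 1.89%, 1.65% and 1.77% in Fertile replicates 1 to 3. The mean share was 2.04% ± 0.224 in Sub-fertile and 1.77% ± 0.119 in Fertile vesicles (SD, n = 3 each), given as a description with no test. Within the family, miR-148a-3p held 95.2% ± 0.254 in Sub-fertile and 95.7% ± 0.309 in Fertile vesicles, and miR-148b-3p held 4.59% ± 0.241 in Sub-fertile and 4.06% ± 0.271 in Fertile vesicles. The share of miR-152-3p was 0.244% ± 0.0649 in Sub-fertile and 0.218% ± 0.0403 in Fertile vesicles (SD, n = 3 each).

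Between the groups, none of the 3 members passed the test. At an adjusted p of 0.05 (limma, Benjamini-Hochberg over all 234 miRNAs tested), 0 of 3 members were called, against 3.42% of all tested miRNAs. On the deposited scale the groups separated for 0 of 3 members, against 25.6% of all tested miRNAs. With plain CPM they separated for miR-148b-3p, and the share over all tested miRNAs was not counted on that scale. Unadjusted, the p of 0 of 3 members was under 0.05, against 19.2% of all tested, and edgeR and DESeq2 on the recovered reads likewise called 0 of 3.

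For miR-148a-3p the log2 change was 0.07 (SE 0.17, Sub-fertile over Fertile, on the log2(value + 1) scale; limma adjusted p = 0.846). Its 95% interval ran from 0.806-fold to 1.38-fold. For miR-148b-3p the log2 change was 0.26 (SE 0.21; limma adjusted p = 0.530), with an interval from 0.860-fold to 1.67-fold. For miR-152-3p it was 0.23 (SE 0.45; limma adjusted p = 0.846), with an interval from 0.575-fold to 2.38-fold, the widest of the 3. At the 6 to 42 reads per library behind miR-152-3p, a difference within that range could not be told from none. The median log2 change of the members was 0.23, against -0.10 over all 234 tested miRNAs. All 3 members had a log2 change above 0, as had 44.4% of all tested miRNAs.

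On the deposited scale, the direction of 2 of the 3 members rested on Sub-fertile replicate 3. Without that library, the log2 change of miR-148a-3p was -0.041 (limma adjusted p = 0.892) and that of miR-152-3p was -0.093 (limma adjusted p = 0.926). That of miR-148b-3p was 0.14 (limma adjusted p = 0.696). With plain CPM, miR-148a-3p was at 21447 and 17114 in Sub-fertile replicates 1 and 2, against 18011, 15811 and 17003 in Fertile replicates 1 to 3. For miR-152-3p these levels were 46.4 and 37.2, against 47.9, 37.3 and 30.9. Whether the 2 reversals hold with plain CPM was not tested. On the deposited scale, Sub-fertile replicate 3 was the highest of 6 libraries for all 3 members, and for 25.6% of all tested miRNAs. With plain CPM it was the highest for miR-152-3p alone. Sub-fertile replicate 1 was then the highest for miR-148a-3p (21447 against 19669 in Sub-fertile replicate 3) and miR-148b-3p (973.8 against 953.0). Sub-fertile replicate 3 also had the highest epithelial marker sum on the deposited scale, 132763. This sum was 86779 and 92502 in the other Sub-fertile libraries and 98504 to 105692 in Fertile libraries. Of the 4 markers, miR-141-3p (63542) and miR-200c-3p (58948) were at their highest there. The other 2, miR-375-3p (1681) and miR-182-5p (8592), were below all 3 Fertile libraries, so the sum does not speak for every epithelial marker. The part of this in the members' levels was not tested. Without Sub-fertile replicate 1, the shallowest library, the log2 changes were 0.12 for miR-148a-3p, 0.35 for miR-148b-3p and 0.38 for miR-152-3p, with limma adjusted p of 0.635, 0.261 and 0.646.

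Scaling moved the levels of the whole table by more than some of these changes. With plain CPM the middle of the log2 changes over all 234 was 0.02, a shift of 0.12. Relative to the median of all tested miRNAs, the members' log2 changes were 0.17 for miR-148a-3p, 0.36 for miR-148b-3p and 0.32 for miR-152-3p on the deposited scale, and 0.17, 0.36 and 0.32 with plain CPM.

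**Figure D2:**
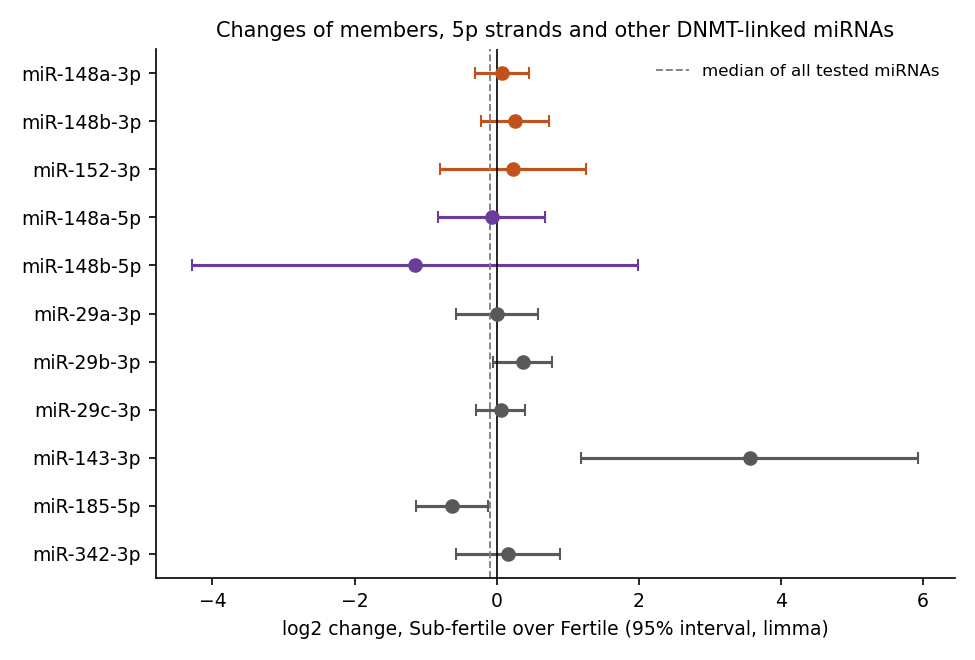
Log2 change, Sub-fertile over Fertile, with 95% intervals from limma (horizontal axis) for the 3 members (orange), the 5p strands of miR-148a and miR-148b (purple) and 6 other miRNAs reported to target DNA methyltransferases (grey). The intervals of all 3 members include 0, and the dashed line marks the median of all tested miRNAs, -0.10.

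Ratios between members within a library do not depend on how libraries are scaled. The ratio of miR-148a-3p to miR-148b-3p was 22.0, 19.7 and 20.6 in Sub-fertile replicates 1 to 3, against 21.9, 23.9 and 25.1 in Fertile replicates 1 to 3. The groups touched through Sub-fertile replicate 1 and Fertile replicate 1, and the other 2 Sub-fertile libraries were below all 3 Fertile ones. The mean log2 ratio differed by -0.19 between the groups (Sub-fertile minus Fertile; two-sided exact permutation p = 0.2, adjusted over 3 pairs p = 0.6, n = 3 each). With 3 libraries against 3 the smallest p is 0.1, so this test cannot reach 0.05.

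The ratio of miR-148a-3p to miR-152-3p was 407.0 ± 94.2 in Sub-fertile and 450.3 ± 90.4 in Fertile vesicles (SD, n = 3 each; exact permutation p = 0.7, adjusted p = 1). That of miR-148b-3p to miR-152-3p was 19.6 ± 4.60 in Sub-fertile and 18.9 ± 2.61 in Fertile vesicles (SD, n = 3 each; exact permutation p = 1, adjusted p = 1). Sub-fertile replicate 3 gave the lowest value of both ratios, 298.3 and 14.5, where miR-152-3p was highest.

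**Figure D3:**
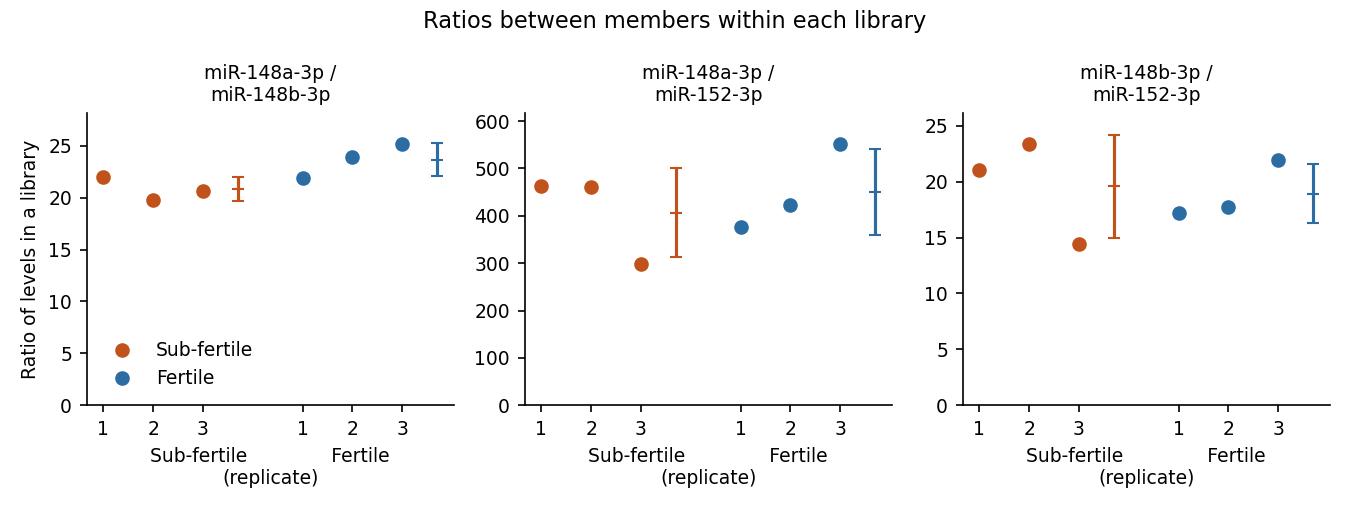
Ratio of the levels of 2 members within each library (vertical axis, from 0, a separate scale for each panel), Sub-fertile left and Fertile right; points are libraries, and the bar beside each group is its mean ± SD. The ratio of miR-148a-3p to miR-148b-3p stays between 19.7 and 25.1 in all 6 libraries.

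The coefficient of variation over 6 libraries was 10.6% for miR-148a-3p, the 10th lowest (place 10) of 234 tested miRNAs, against a median of 36.9%. Among the 30 tested miRNAs nearest to it in mean level, whose median was 23.8%, 1 had a lower value. For miR-148b-3p it was 16.1% (place 25 of 234), with 4 of its 30 nearest lower, and for miR-152-3p it was 33.6% (place 109), also with 4 of its 30 nearest lower. Within the groups the places were less low. In Sub-fertile libraries the coefficient of variation was 14.5% for miR-148a-3p (place 34 of 234, with 8 of its 30 nearest lower) and 15.5% for miR-148b-3p (place 38, with 7 of 30 lower). For miR-152-3p it was 42.3% there (place 131, with 10 of 30 lower). In Fertile libraries it was 5.93% for miR-148a-3p (place 23, with 8 of 30 lower) and 11.4% for miR-148b-3p (place 81, with 14 of 30 lower, whose median was 12.1%). Counting error alone over 6 libraries would give 1.26% for miR-148a-3p, 5.94% for miR-148b-3p and 24.7% for miR-152-3p. In Fertile libraries the coefficient of variation was 21.2% for miR-152-3p, where counting error alone would give 21.1%. Without Sub-fertile replicate 3, the values on the deposited scale were 4.62% for miR-148a-3p, the lowest of 234 (place 1), 9.84% for miR-148b-3p and 16.1% for miR-152-3p. For miR-152-3p, counting error alone would give 28.1% in these libraries. On the deposited scale, Sub-fertile replicate 3 was the highest library for all 3 members, but for 25.6% of all tested miRNAs. Leaving it out thus removed the members' own extreme on that scale, so place 1 cannot be read as a fair rank of spread. With plain CPM the highest library of miR-148a-3p was Sub-fertile replicate 1, and spread was not computed with plain CPM. The coefficients of variation are a description of the libraries, with no test.

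**Figure D4:**
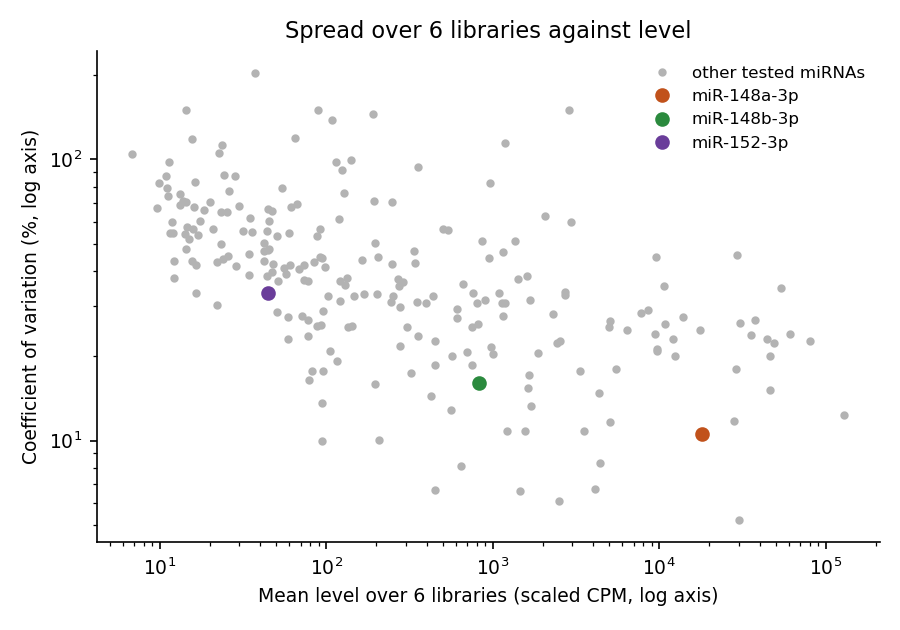
Coefficient of variation over 6 libraries (vertical axis, percent, log axis) against mean level (horizontal axis, scaled CPM, log axis) for 234 tested miRNAs, with the 3 members in colour. The members sit at 10.6%, 16.1% and 33.6%, each under the median of the 30 miRNAs nearest to it in level, 23.8%, 30.8% and 47.3%.

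The opposite strands of the hairpins were far scarcer. The 5p strand of miR-148a had 87.4, 81.7 and 142.7 in Sub-fertile replicates 1 to 3, against 113.3, 105.1 and 99.6 in Fertile replicates 1 to 3. Its highest library on the deposited scale was Sub-fertile replicate 3, as for the 3p strand. It made up 0.598% of the reads of both strands over 6 libraries, and the level of miR-148a-3p was 153 to 207 times that of miR-148a-5p within a library. The log2 change of miR-148a-5p was -0.07 (SE 0.33; limma adjusted p = 0.905), with a sign that turned with plain CPM, where it was 0.044.

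For miR-148b-5p the level was 0, 28.6 and 45.2 in Sub-fertile replicates 1 to 3, on 0, 7 and 26 reads, against 12.0, 31.1 and 34.8 in Fertile replicates 1 to 3, on 9, 16 and 15 reads. A count of 0 in Sub-fertile replicate 1 allows up to 3 reads, or 18.7 units, a limit that lies above the level of Fertile replicate 1. It made up 3.16% of the reads of both strands. Its log2 change was -1.15 (SE 1.37; limma adjusted p = 0.695) and depended on the library at 0: without Sub-fertile replicate 1 it was 0.59 (limma adjusted p = 0.546). The third opposite strand, miR-152-5p, had 0 reads in all 6 libraries, which allows up to 18.7 units in Sub-fertile replicate 1 and up to 4.0 in Fertile replicate 1. Of the 2 opposite strands tested, 0 passed (limma, against 3.42% of all tested miRNAs).

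The miRNAs whose profile over 6 libraries was most like that of a member were ranked by Pearson's r of log2 levels among 233 others, as a description with no test. For miR-148a-3p they were miR-141-3p (r = 0.96), miR-181c-5p (r = 0.94) and miR-508-3p (r = 0.90). For miR-148b-3p they were miR-135b-5p (r = 0.97), miR-1298-5p (r = 0.96) and miR-29b-3p (r = 0.92). For miR-152-3p they were miR-200c-3p (r = 0.93), miR-181c-5p (r = 0.90) and miR-148a-3p itself (r = 0.89). All libraries share one table and its scaling. On the deposited scale, Sub-fertile replicate 3 was the highest library for all 8 of these miRNAs, miR-148a-3p included, against 25.6% of all tested miRNAs. The 8 were picked for likeness to members that were highest there, so this count follows largely from the choice. The level of miR-141-3p, an epithelial miRNA, was 35812, 40102 and 63542 in Sub-fertile replicates 1 to 3, against 44999, 36773 and 44061 in Fertile replicates 1 to 3. Between members r was 0.83 for miR-148a-3p with miR-148b-3p and 0.86 for miR-148b-3p with miR-152-3p. By ranks the likeness was lower: Spearman's rho was 0.60 and 0.43 for these pairs and 0.49 for miR-148a-3p with miR-152-3p.

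Of 8 other miRNAs that have been reported, in human or mouse cells, to target DNA methyltransferases, 7 were listed and 6 were tested. None of the 6 passed in either direction (limma, against 3.42% of all tested miRNAs), and their median log2 change was 0.11, against -0.10 over all tested. The miR-29 family, which targets DNMT3A and DNMT3B, had log2 changes of 0.01 (SE 0.25) for miR-29a-3p, 0.36 (SE 0.18) for miR-29b-3p and 0.06 (SE 0.15) for miR-29c-3p. For miR-29b-3p all 3 Sub-fertile libraries, at 1617, 1895 and 2098, were above all 3 Fertile libraries, at 1538, 1364 and 1437 (limma adjusted p = 0.324), and the same held for miR-143-3p. For 2 of the 6 tested, therefore, all Sub-fertile libraries were higher, against 9.40% of all tested miRNAs. Of these 2, miR-143-3p reached the filter value of 10 only in the 3 Sub-fertile libraries. Its separation was thus fixed once it passed the filter, and no result is drawn from this count.

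For miR-143-3p, a stromal and smooth muscle miRNA reported to target DNMT3A, there were 9, 3 and 8 reads in Sub-fertile and 1, 1 and 0 reads in Fertile replicates 1 to 3 (limma adjusted p = 0.0921). For miR-185-5p, reported to target DNMT1, all 3 Sub-fertile libraries were below all 3 Fertile ones (1 of the 6 tested, against 16.2% of all tested miRNAs). It stood at 480.8, 567.7 and 743.0 in Sub-fertile replicates 1 to 3, against 874.4, 928.4 and 924.5 in Fertile replicates 1 to 3, with a log2 change of -0.63 (SE 0.22; limma adjusted p = 0.166). For miR-342-3p, also reported to target DNMT1, the log2 change was 0.16 (SE 0.32; limma adjusted p = 0.846). The last listed miRNA, miR-377-3p, had 1 read, in Sub-fertile replicate 3, and was not tested.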

How the data were processed

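Per the labels' protocols, vesicles were purified by ultracentrifugation followed by a size exclusion column, total RNA was taken with Trizol and a miRNeasy kit, and a QIAseq kit served for the small RNA libraries. The submitters' processing notes list bcl2fastq, Bowtie2 2.2.2, DESeq2 and the build OryCun2.0 without saying what each did. The authors deposited 1 normalized signal per miRNA and library under the name CPM, but the column totals, 807952 to 1108265, differ from those of plain CPM. Each value (100% of them) was a whole multiple of the smallest in its library within a tolerance of 1e-06, which gave whole reads. The sources used here do not say whether unique molecular identifiers were used, so PCR copies may be counted. Libraries of 1 group differed well beyond sampling noise (chi-square per degree of freedom at least 20.3).

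Groups came from the labels. All miRNAs reaching 10 in 3 or more of the 6 libraries, 234 in all, entered one two-sided limma 3.58.1 fit (R 4.3.3, with trend) on log2(value + 1). Ratios between members were compared by exact permutation over libraries (scipy 1.17.1). Alternatives covered pseudocounts, filters, scalings, limma without a trend, the replicate number as a block, each library omitted in turn, and edgeR 4.0.16 (7 miRNAs called) or DESeq2 1.42.0 on the recovered reads. The scripts were tested on simulated data. Besides the members, named miRNAs were their 5p strands, the 2 neighbours on each side in mean level, the 3 most alike in profile, markers of cell types, and 8 miRNAs linked to DNA methyltransferases, of which miR-126-3p was not analysed here. A planned list of miRNAs with an offset seed was not used here. The members and lists were chosen with earlier results of these data known.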

Additional observations from a re-analysis of the deposited data

How the results depend on the processing

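None of the 3 members passed in any of the 17 settings run for miR-148a-3p and miR-148b-3p or the 16 for miR-152-3p, which a filter at 100 removed. Over these settings the adjusted p ranged from 0.491 to 0.973, from 0.261 to 0.815 and from 0.646 to 0.984. Libraries were left out in turn on the deposited scale alone. The log2 change then ran from -0.041 to 0.14 for miR-148a-3p and from 0.14 to 0.35 for miR-148b-3p. For miR-152-3p it ran from -0.093 to 0.39. Both negative values came without Sub-fertile replicate 3. In the other settings all 3 stayed above 0, from 0.07 to 0.20, from 0.26 to 0.39 and from 0.21 to 0.43. The log2 ratio of the group means of the family sum was 0.091, 0.20 with plain CPM, 0.16 with median-of-ratios scaling and -0.035 without Sub-fertile replicate 3.

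With 1 library left out, the group difference in the log2 ratio ran from -0.24 to -0.14 for miR-148a-3p to miR-148b-3p, from -0.28 to 0.054 for miR-148a-3p to miR-152-3p and from -0.11 to 0.23 for miR-148b-3p to miR-152-3p. The mean log2 ratios between members ran from 4.43 to 4.50, from 8.64 to 8.82 and from 4.19 to 4.33 for the same pairs, with an exact permutation p of 0.0625 each, the smallest that 5 libraries can give.

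The 5p strands changed sign. For miR-148a-5p the log2 change was 0.044 with plain CPM, 0.0050 with median-of-ratios scaling, 0.097 with edgeR and 0.086 with DESeq2, and -0.32 to 0.077 with 1 library left out. For miR-148b-5p it was 0.21 with edgeR and 0.11 with DESeq2, and -2.18 to 0.59 with 1 library left out. With 1 library left out, miR-29a-3p ran from -0.23 to 0.17 and miR-342-3p from -0.10 to 0.36. DESeq2 called miR-143-3p (log2 change 4.61, adjusted p = 0.0237), which had passed the filter through its Sub-fertile libraries alone.

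Over all tested miRNAs 8 were called, against 14 with a filter at 100, where fewer were tested. With quantile normalization 5 were called, with limma without a trend 1 and with DESeq2 17. With 1 library left out 3 to 39 were called (39 without Sub-fertile replicate 1, 5 without Sub-fertile replicate 2). Leaving out Fertile replicate 1, 2 or 3, each in turn, gave 3 every time. Apart from the filter at 100, the cause was not tested. With the replicate number as a block 0 passed in limma, where 43 had an unadjusted p under 0.05. Deviations from the group means correlated between same-numbered libraries at 0.05, -0.12 and 0.10, so the numbers were not taken to pair them; no call on a member changed in the blocked fit. Among the members, miR-152-3p rested on the fewest reads, 6 to 42 per library.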
